A study of Mus musculus with 4 samples.

Results

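The comparison described here is that of spermidine (SD) with vehicle in lumbar cord from wild type (WT) mice, which used 2 of the 4 RNA sequencing libraries of the series, 1 for WT vehicle and 1 for WT + SD. Its members are the gene names with a mean of at least 1 RPKM (reads scaled by transcript length and library depth) over the 4 libraries, which were 12987 of the 18674 names of the deposited table. A gene was called where the ratio of WT + SD to WT vehicle, with 0.1 RPKM added to each value, was at least 1.5-fold in either direction. With 1 library for each condition no difference has a replicate check, and no test was made. In these bulk libraries, fewer cells of a type and less RNA per cell cannot be told apart.

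The study asked whether SD alters gene expression in a mouse model of amyotrophic lateral sclerosis (ALS). G93A mice carry a high copy number transgene of mutant human SOD1 and were bred on a mixed B6/SJLF1 background, and the WT mice are taken to come from the same colony. Treated animals were male and received intraperitoneal SD at 5 mg/kg on 4 occasions a week (5 in another passage of the study), or vehicle, which the RNA sequencing methods call PBS and another section calls saline. Cords were collected at 100 days of age after 30 days of treatment, and the number of animals behind each library was not given in the sources used here. Each genotype thus has a vehicle group and an SD group, and values of all 4 libraries are given in the order of WT vehicle and WT + SD followed by the same for G93A. On a mixed background, animals can carry either parental allele at a locus, alleles were not read here, and an inherited difference between the animals of 2 libraries and a difference made by treatment cannot be told apart.

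SD is a polyamine, a small cation made from putrescine by spermidine synthase (Srm) and turned into spermine by spermine synthase (Sms). It donates the side chain that makes hypusine on the translation factor eIF5A, it is known to induce autophagy, and the study examined it in relation to LSD1 (Kdm1a), the demethylase that removes methyl groups from lysine 4 of histone H3. Major histocompatibility complex (MHC) genes, which present peptides to T cells, lie together on mouse chromosome 17 and differ between inbred strains. Complement and interferon-stimulated genes belong to innate immunity, and in the cord glia are a main source of them.

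The libraries were of like depth, estimated at 36800000 to 38600000 read pairs. The sums of RPKM were 377288 in WT vehicle and 376852 in WT + SD. The tissue label was checked against markers, and motor neuron genes such as Chat (9.83 RPKM in the WT vehicle library and 8.57 RPKM in WT + SD) and the neurofilament gene Nefl (812.1 and 762.9 RPKM) were present, together with the myelin gene Mbp (4669 and 4662 RPKM) and the astrocyte gene Gfap (441 and 386 RPKM). No list of markers for motor neurons, other spinal neurons, oligodendrocytes, their precursors, astrocytes or endothelial cells had a called member. Single genes were called in 5 lists of other cell types. Ccdc153 of ependyma was lower (1.84 and 0.722 RPKM), while 9 of the 11 tested ependyma genes lay above 0, with a median log2 ratio of 0.29. Ngfr of Schwann cells was higher, while 6 of 7 tested genes of that list lay below 0, with a median of -0.01. Tagln of pericytes was higher (2.48 and 4.01 RPKM), with 4 of 8 genes above 0 and a median of 0.01. Mgp of meninges was lower (4.07 and 2.57 RPKM), and 6 of 9 genes of the list lay below 0, with a median of -0.23 (-0.13 with a pseudocount of 1 RPKM), although the summed level of that list was 228 RPKM in WT vehicle and 289 RPKM in WT + SD. Ccl5 was lower and was the only tested gene of the T cell list. Blood and muscle, which had called genes too, are described with those genes.

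Between the WT libraries 246 genes were called, 1.89% of those tested. WT + SD was higher for 95 genes (0.732%) and lower for 151 genes (1.16%). The median log2 ratio of all tested genes was 0.01, and 5% of genes lay below -0.29 and 5% above 0.26. At 2-fold, 23 genes were higher and 54 were lower, and at 4-fold, 5 were higher and 16 were lower. The called share was 0.825% where the mean was 5 RPKM or more and 4.18% where it was lower, and 65 called genes had a mean under 1 RPKM over the 2 WT libraries. These passed the filter through the G93A libraries. On the edge of the fold threshold, Pkd2l1 (log2 ratio 0.59) was called and Fmod (-0.58) was not. On the edge of the filter, BC049715 had a mean of 1.002 RPKM and was tested, and Pkp2 had a mean of 0.999 RPKM and was not. The plot of both WT libraries shows that most genes lay on the diagonal and that the few genes far from it lay mainly on the WT vehicle side.

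**Figure D1:**
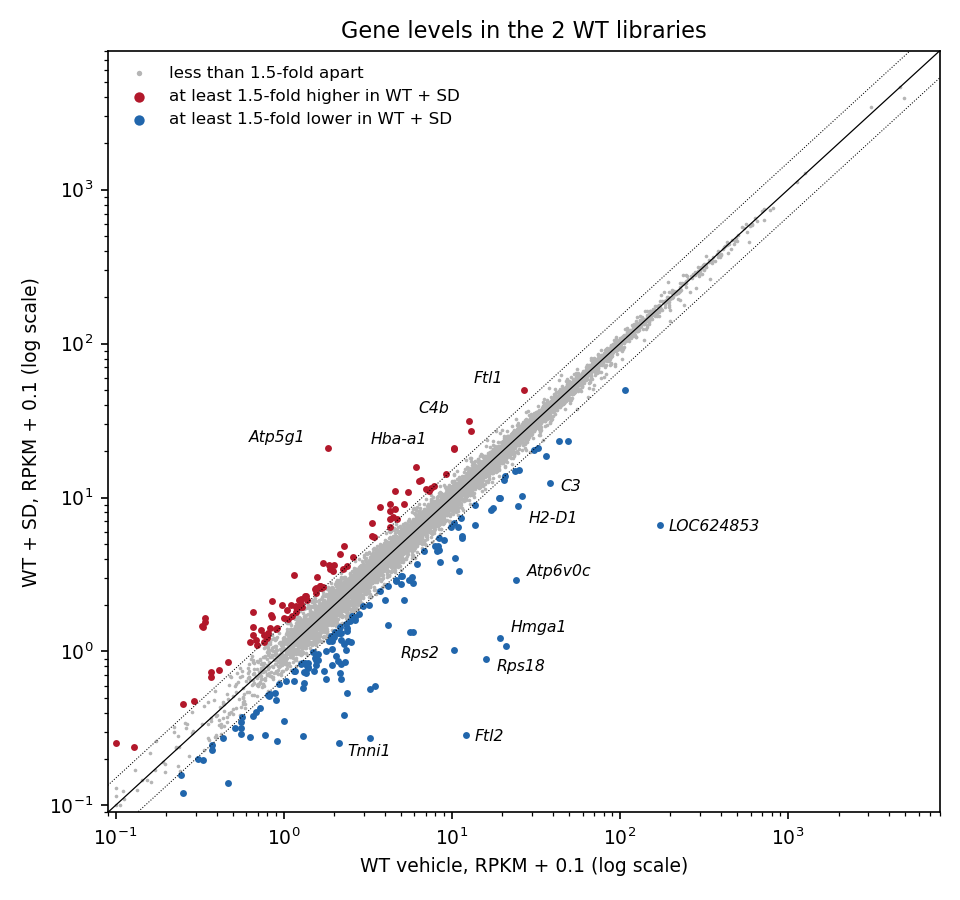
Each point is 1 tested gene, with its level in WT vehicle on the x axis and in WT + SD on the y axis, both as RPKM + 0.1 on log scales; the solid line marks equal levels and the dotted lines a 1.5-fold difference. Blue marks the 151 genes called lower and red the 95 called higher, with Ftl2, LOC624853, Rps18, Hmga1 and Atp5g1 farthest from the line.

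Genes that handle polyamines were alike in both WT libraries. None of the 24 tested genes of polyamine metabolism and transport was called, against 1.89% of all genes, and their median log2 ratio was -0.02. Odc1, which makes putrescine and is the first step of the pathway, had 6.70 RPKM in the WT vehicle library and 6.82 RPKM in WT + SD. Srm had 15.4 and 15.02 RPKM, and Sms 32.9 and 33.3 RPKM. Sat1, the acetyltransferase that starts polyamine breakdown and is known to be induced by polyamines, had 21.6 and 21.3 RPKM. The antizyme gene Oaz1, which limits Odc1, had 12.4 and 11.97 RPKM. The values of this list ranged from a log2 ratio of -0.22 (Sat2) to 0.31 (Atp13a5, a P5-type ATPase). The 4 genes of eIF5A and its hypusine enzymes lay between -0.13 and 0.13.

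The LSD1 complex was likewise without a called gene among its 22 tested members, where 1.89% of all tested genes were called. The median log2 ratio of these members was 0.01. Kdm1a itself had 15.3 RPKM in the WT vehicle library and 15.4 RPKM in WT + SD, and its corepressor partner Rcor1 had 4.12 and 4.41 RPKM. Among 20 genes of H3K4 methylation 1 was called, Prdm9, the methyltransferase of meiotic recombination sites, with 1.14 and 1.85 RPKM (log2 ratio 0.65), and it lies on chromosome 17. None of 43 genes of autophagy and lysosome regulation was called, and their values lay between -0.37 and 0.20. The study selected 2 target genes on these same samples, so that they are no independent evidence of a direction. Of them Rpl26, a ribosomal protein, had 7.44 RPKM in the WT vehicle library and 11.4 RPKM in WT + SD (log2 ratio 0.61) and was called, and 2810001G20Rik (-0.06) was not.

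**Figure D2:**
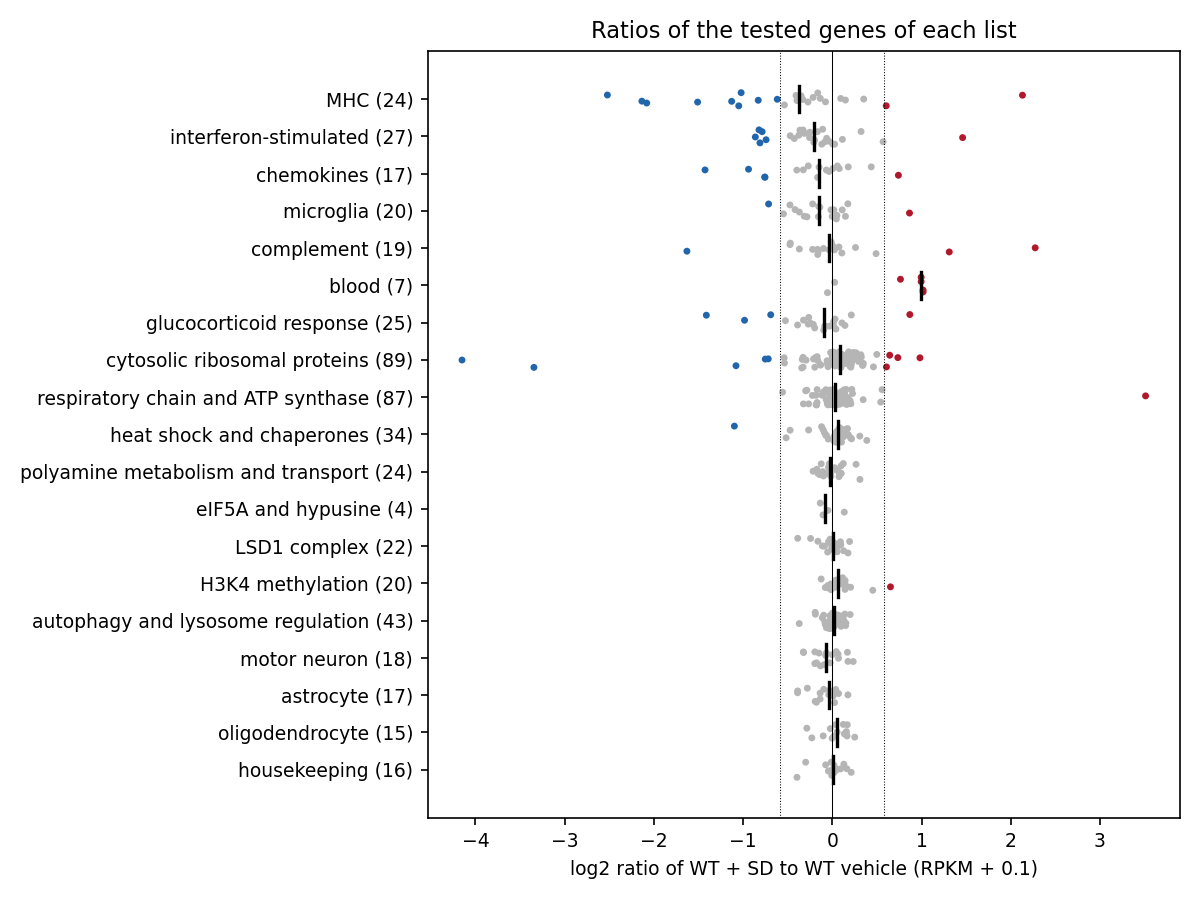
Each point is 1 tested gene of a list, placed by the log2 ratio of WT + SD to WT vehicle (RPKM + 0.1), with red and blue for genes at least 1.5-fold higher or lower, dotted lines at 1.5-fold and a black bar at the median of the list; the number of tested genes stands in brackets. Among the lists drawn the medians ran from -0.37 for MHC genes to 0.996 for blood genes, and the polyamine, LSD1, autophagy and neural lists lay within the dotted lines.

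The called genes were not spread evenly over the chromosomes. Chromosome 17 held 40 called genes among 619 tested (6.46%), of which 12 were higher and 28 were lower. The other chromosomes together held 198 among 12334 (1.61%). Chromosome 9 followed with 22 of 735 (2.99%) and chromosome 11 with 28 of 1073 (2.61%), while chromosome 18 had 1 of 369. In the G93A pair, which shares no library with the WT pair, chromosome 17 also had the highest share among chromosomes, with 34 of 619 genes (5.49%) at least 1.5-fold apart, against 1.99% of the genes on the others and 2.17% of all genes.

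**Figure D3:**
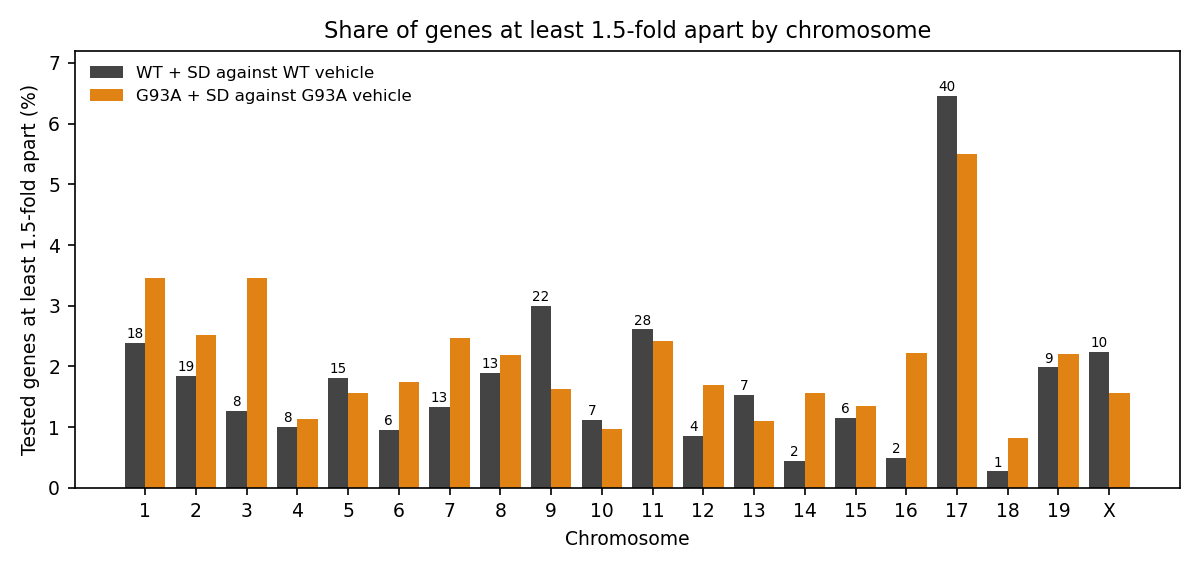
Bars give the percent of tested genes on each chromosome that were at least 1.5-fold apart in either direction, in dark grey for WT + SD against WT vehicle and in orange for G93A + SD against G93A vehicle, with the number of genes in the WT pair above its bar. Chromosome 17 stands above the other chromosomes in both pairs, at 6.46% and 5.49%.

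Within chromosome 17 the called genes lay in a few stretches (coordinates on GRCm38). Between 31 and 37 Mb, which includes the MHC, 24 of 145 tested genes (16.6%) were called. Between 24 and 26 Mb 6 of 73 genes (8.22%) were called, all lower. Between 26 and 31 Mb 1 of 63 was called, Hmga1. From 37 to 60 Mb the number was 3 of 135 (2.22%), and outside 24 to 60 Mb it was 6 of 203 (2.96%). Of the 24 called genes in the MHC stretch 10 were also at least 1.5-fold apart in the same direction in the G93A pair and none in the opposite one. Of the 6 genes between 24 and 26 Mb the numbers were 4 and 0. Among the 10, H2-Ob, C4a and H2-gs10 passed the filter only through the higher value of their G93A pair. For these the filter favoured the shared direction.

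**Figure D4:**
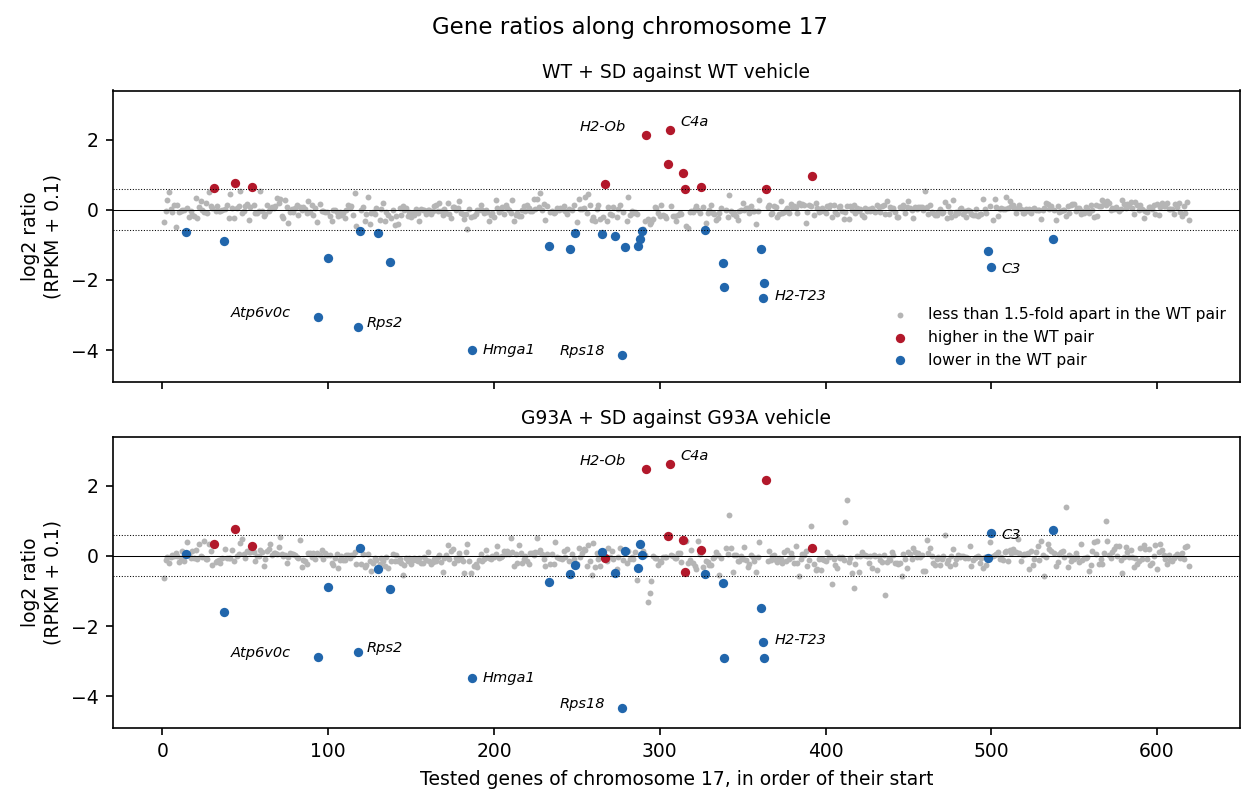
Points are the 619 tested genes of chromosome 17 in the order of their start, with the log2 ratio (RPKM + 0.1) of WT + SD to WT vehicle above and of G93A + SD to G93A vehicle below; red and blue mark genes called in the WT pair in both panels, and dotted lines mark 1.5-fold. Rps18, Hmga1, Rps2, Atp6v0c and H2-T23 lie low in both panels, and H2-Ob and C4a lie high in both, whereas C3 lies low above and high below.

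The largest differences on chromosome 17 were in genes of general cell functions. Rps18 (chr17:33951999-33956001), a protein of the small ribosomal subunit, had 15.8 RPKM in the WT vehicle library, 0.798 RPKM in WT + SD, 32.6 RPKM in G93A vehicle and 1.51 RPKM in G93A + SD. Both SD libraries were thus more than 10-fold below both vehicle libraries, and the log2 ratio was -4.15 in the WT pair and -4.34 in the G93A pair. Rps2 (chr17:24718116-24721929), of the same subunit, had 10.3, 0.922, 7.79 and 1.09 RPKM in the same order of libraries (log2 ratios -3.34 and -2.72). Hmga1 (chr17:27556497-27563674), which bends AT-rich DNA, had 19.2, 1.12, 12.7 and 1.04 RPKM (-3.99 and -3.48), and each of its 14 transcript rows lay between -4.05 and -3.84 in the WT pair. Atp6v0c (chr17:24163866-24169702), the membrane ring subunit of the vacuolar proton pump, had 24.1, 2.82, 14.8 and 1.94 RPKM (-3.05 and -2.87). In each of these genes the groups of SD and vehicle libraries did not overlap.

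Next to Atp6v0c and Rps2 lay Rnps1, a factor of the exon junction complex, with 10.3 RPKM in the WT vehicle library, 3.93 RPKM in WT + SD, 7.38 RPKM in G93A vehicle and 3.92 RPKM in G93A + SD. Unkl had 4.07, 1.39, 2.39 and 1.21 RPKM. Hn1l (23.7 and 14.9 RPKM in the WT vehicle library and WT + SD) and the small nucleolar RNA Snora64 completed this run of 6 called genes, which were all lower and spanned 1.07 Mb. A run is here a chain of at least 3 called genes whose starts lie at most 1 Mb apart.

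Several of these genes have near-identical copies elsewhere, between which short reads cannot be told apart. Of 53-base windows of Rps18 transcripts, taken every 10 bases, 86.3% occur also in transcripts of other genes, and the share was 77.9% for Rps2, 75.2% for Hmga1 and 31.6% for Atp6v0c. Over all called genes with a transcript sequence, 44 of 231 (19.05%) had at least 50% of their windows in another gene, against 577 of 12805 tested genes (4.51%). How reads were assigned to copies was not given in the sources used here, and its part in these values was not tested.

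The MHC list had 24 tested genes, of which 9 were lower and 2 were higher in WT + SD (1.16% and 0.732% of all tested genes), with a median log2 ratio of -0.37 (-0.24 with a pseudocount of 1 RPKM). In the G93A pair, where 2.17% of all genes were at least 1.5-fold apart, 9 were lower and 3 were higher, with a median of 0.00. Classical class I genes, whose products present peptides to cytotoxic T cells, were lower. H2-K1 (chr17:33996017-34000347) had 16.98 RPKM in the WT vehicle library and 8.16 RPKM in WT + SD, but 40.7 and 44.8 RPKM in G93A vehicle and G93A + SD. H2-D1 (chr17:35262730-35267499) had 24.8, 8.65, 73.7 and 43.0 RPKM, and LOC547349, a name without a position here, had 25.95, 10.2, 79.1 and 45.6 RPKM. The values of LOC547349 lay near those of H2-D1 in each library, and whether these 2 names are separate measurements was not tested. For these genes WT + SD had the lowest of the 4 values, and only H2-D1 and LOC547349 were lower in both pairs. B2m, which pairs with all class I chains and lies on another chromosome, had 80.0 and 60.7 RPKM in the WT pair (-0.40) and was not called.

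Of nonclassical class I names, 5 were lower and 1 was higher in both SD libraries, though H2-T9 and H2-T22 may not be separate measurements. H2-M3, also nonclassical, was called in neither pair (log2 ratios -0.08 and 0.12). Of the called names H2-T23, H2-T22, H2-T24 and H2-T10 lie together, H2-gs10 lies nearer to H2-D1 and H2-T9 has no position here. H2-T23 (chr17:36029773-36032855), which encodes Qa-1, a ligand of inhibitory receptors on natural killer cells, had 3.16 RPKM in the WT vehicle library, 0.469 RPKM in WT + SD, 11.02 RPKM in G93A vehicle and 1.95 RPKM in G93A + SD. H2-T22, a ligand of some gamma delta T cells, had 5.52, 1.23, 12.9 and 1.64 RPKM. H2-T9 had 5.78, 1.24, 13.4 and 1.67 RPKM, nearly the values of H2-T22, of whose windows 43.9% are shared with other genes. H2-T24 had 1.94, 0.834, 3.49 and 1.18 RPKM, and H2-gs10 had 1.21, 0.183, 4.999 and 0.576 RPKM. In the opposite direction H2-T10 had 2.17, 3.35, 0.858 and 4.23 RPKM. For all 6 called names the 2 SD libraries lay at least 1.5-fold to one side of the 2 vehicle libraries. This held for 0.231% of all tested genes. H2-gs10 reached the filter's mean of 1 RPKM only with its G93A vehicle value, the higher one of that pair. The filter thus favoured a lower G93A + SD value for H2-gs10. The sum over the MHC list was 224 RPKM in the WT vehicle library and 162 RPKM in WT + SD.

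Genes of class II presentation and of peptide supply differed among themselves. H2-Ob, a chain of the H2-O protein that tunes the loading of class II molecules, had 0.231 RPKM in the WT vehicle library and 1.35 RPKM in WT + SD, and 1.11 and 6.64 RPKM in the G93A libraries. Like C4a, described with complement, it reached the filter's mean of 1 RPKM only with its G93A + SD value, which is the higher one of that pair. H2-DMb1, a chain of the loading catalyst H2-DM, had 1.41, 0.645, 4.30 and 3.397 RPKM. The class II chains H2-Aa (log2 ratio -0.41), H2-Ab1 (-0.27) and H2-Eb1 (-0.35) were not called in the WT pair. The immunoproteasome subunit Psmb9 (1.21 and 0.639 RPKM) and the peptide transporter Tap1 (1.17 and 0.726 RPKM) were lower in WT + SD, while Psmb8 (-0.54), Tap2 (-0.33) and Tapbp (-0.16) lay below 0 and were not called. In the G93A pair Psmb9 had a log2 ratio of 0.34 and Tap1 of 0.01.

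Complement genes differed in direction, with 1 lower and 2 higher of 19 tested (1.16% and 0.732% of all tested genes). C4b (chr17:34728380-34743882), the main source of complement C4, had 12.5 RPKM in the WT vehicle library and 31.1 RPKM in WT + SD, against 101.8 and 150.6 RPKM in the G93A libraries (log2 ratios 1.31 and 0.56). Its neighbour C4a had 0.241, 1.55, 0.824 and 5.55 RPKM (log2 ratios 2.27 and 2.61). It reached the mean of 1 RPKM only with its G93A + SD value, so that the filter favoured a higher G93A + SD value. Of the windows of C4b 33.6% are shared with other genes. C3 (chr17:57203970-57228136), the central component of the cascade, had 38.5 RPKM in the WT vehicle library and 12.4 RPKM in WT + SD, which rest on about 7271 and 2436 estimated read pairs. In the G93A libraries it had 175 and 277 RPKM, so that the order was the opposite there (log2 ratios -1.63 and 0.66). None of the windows of C3 was shared. The other 16 tested complement genes were not called, among them C1qa with 26.04 and 20.1 RPKM (-0.37) and C1qc with 17.4 and 12.5 RPKM (-0.47).

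More interferon-stimulated genes were lower than higher in WT + SD. Of 27 tested genes 21 had a log2 ratio below 0, 5 were called lower and 1 higher (1.16% and 0.732% of all tested genes), and the median was -0.21 against 0.01 over all tested genes. In the G93A pair none was lower and 3 were higher (2.17% of all genes either way), with a median of 0.08. Ifit3, Ifit3b and Ifit1, which belong to a family of RNA-binding antiviral proteins, lie in 1 run on chromosome 19. Ifit3b has the name I830012O16Rik here and is not a member of the list. The run holds no other tested gene, but its ends are called genes by definition, so genes beside it are not covered. Ifit3 had 8.10 RPKM in the WT vehicle library, 4.41 RPKM in WT + SD, 11.3 RPKM in G93A vehicle and 13.5 RPKM in G93A + SD. I830012O16Rik had 4.56, 2.80, 5.48 and 6.25 RPKM, and Ifit1 had 2.28, 1.25, 3.29 and 3.65 RPKM. WT + SD was the lowest of the 4 libraries for all 3. Since 50% of the windows of Ifit3 and 43.6% of those of I830012O16Rik are shared, these 2 may hold the same reads. The other list members called lower were Oasl2 (2.27 and 1.32 RPKM), a member of the oligoadenylate synthetase family, Irf7 (1.28 and 0.702 RPKM), the transcription factor that amplifies interferon production, and Ifi27l2a (1.68 and 0.906 RPKM).

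Other members of the list were close to equal, such as Ifit2 of the same Ifit family (5.43 and 5.20 RPKM), Isg15 (1.63 and 1.66 RPKM) and Cmpk2 (11.9 and 11.9 RPKM). Ifi35 was higher, with 0.554 and 1.70 RPKM (log2 ratio 1.46). The levels of the called members were low, and about 28.6 and 16.1 read pairs stood behind Ifi27l2a, against 520 and 295 behind Ifit3.

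The promoters of the 3 called Ifit genes are shown because these neighbours were lower together, while Ifit2 was near equal. That of Cxcl10 is added because this interferon-induced chemokine was also lower. All promoters are from RefSeq (GRCm38.p6, 250 bases before to 50 after the start). They are Ifit3 at chr19:34583279-34583578 (+ strand), Ifit3b at chr19:34607707-34608006 (+ strand), Ifit1 at chr19:34640639-34640938 (+ strand) and Cxcl10 at chr5:92348840-92349139 (- strand). Capitals mark matches to GAAA, any 2 bases and GAAA, the core of the interferon-stimulated response element, on either strand.
Ifit3: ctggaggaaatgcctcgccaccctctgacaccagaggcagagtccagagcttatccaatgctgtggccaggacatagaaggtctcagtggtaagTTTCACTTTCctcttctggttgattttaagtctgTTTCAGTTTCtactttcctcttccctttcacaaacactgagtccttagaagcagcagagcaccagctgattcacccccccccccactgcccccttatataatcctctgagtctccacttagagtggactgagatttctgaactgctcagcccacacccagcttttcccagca
Ifit3b: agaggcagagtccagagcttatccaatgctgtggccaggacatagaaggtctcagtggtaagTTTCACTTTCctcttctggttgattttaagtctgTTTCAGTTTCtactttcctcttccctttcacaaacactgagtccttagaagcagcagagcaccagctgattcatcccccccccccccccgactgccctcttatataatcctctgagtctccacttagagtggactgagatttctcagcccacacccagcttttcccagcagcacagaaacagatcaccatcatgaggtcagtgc
Ifit1: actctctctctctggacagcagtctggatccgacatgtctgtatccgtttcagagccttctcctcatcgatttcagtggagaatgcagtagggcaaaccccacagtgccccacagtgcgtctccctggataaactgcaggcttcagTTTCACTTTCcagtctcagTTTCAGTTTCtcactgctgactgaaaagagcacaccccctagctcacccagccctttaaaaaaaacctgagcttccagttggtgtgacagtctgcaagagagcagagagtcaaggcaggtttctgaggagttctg
Cxcl10: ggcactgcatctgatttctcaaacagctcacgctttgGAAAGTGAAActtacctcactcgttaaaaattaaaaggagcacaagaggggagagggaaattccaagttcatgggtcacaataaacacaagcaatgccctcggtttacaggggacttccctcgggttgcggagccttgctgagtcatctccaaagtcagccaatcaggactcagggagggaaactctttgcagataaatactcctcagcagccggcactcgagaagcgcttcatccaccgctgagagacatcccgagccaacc
Each of the 3 Ifit promoters holds 2 matches, which all lie on the strand opposite to the gene. In Ifit1 they start 104 and 85 bases before the gene start, in Ifit3 156 and 122 bases before it, and in Ifit3b 188 and 154 bases before it. Cxcl10 holds 1 match, 213 bases before the start. In the promoters of Irf7 and Oasl2 these letters were not found. The letters occur in 3.44% of all 32851 promoters and in 13 of the 22 tested genes of the interferon list that have a promoter in the table. They occur in 8 of 97 genes called lower with a promoter and in 1 of 60 called higher, against 3.99% of 27025 gene symbols. Among 5 other sets of letters searched on both strands, TATAAA was found in 13.4% of the genes called lower and 15.7% of all, CACGTG in 8.25% and 8.09%, TGACGTCA in 1.03% and 2.03%, TGCGTG in 14.4% and 9.59%, and CCGCCC in 54.6% and 38.2% (and in 36 of the 60 called higher). The heat shock element, of which the letters were searched as GAA, TTC and GAA with 2 free bases between them, was found in 2 of the 97 and in 0.662% of all. A match is a description of the sequence and no measured binding site.

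Chemokines and other genes of activated microglia were at low levels in both WT libraries. Of 17 tested chemokine genes 4 were lower and 1 was higher, against 1.16% and 0.732% of all tested genes. Ccl12, a monocyte attractant, had 0.671 RPKM in the WT vehicle library and 0.187 RPKM in WT + SD, Ccl5 had 0.460 and 0.192 RPKM, Ccl2 had 0.233 and 0.0973 RPKM and Cxcl10 had 0.625 and 0.330 RPKM. All 4 passed the filter through the G93A libraries, where Cxcl10 had 2.97 and 5.11 RPKM, and they rest on few read pairs, about 6.98 and 3.03 for Ccl2 and 25.2 and 13.8 for Cxcl10. Ccl17, which attracts T helper cells, had 1.26 and 2.18 RPKM and was higher in both pairs. Among 20 microglial markers Cst7 was lower (0.273 and 0.127 RPKM) and Gpnmb was higher (0.313 and 0.653 RPKM), with a median of -0.15 for the list. In all 13 lay below 0 and 7 above. The defining markers P2ry12 (15.9 and 16.1 RPKM) and Cx3cr1 (14.1 and 12.6 RPKM) were near equal. The summed level of the list was 288 RPKM in the WT vehicle library and 275 RPKM in WT + SD, and the part of cell number in the lower immune genes was not tested.

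On chromosome 1, Fcgr4 and Fcer1g, the alpha and gamma chains of an activating receptor for antibodies, formed a run with Adamts4. Fcgr4 had 0.152, 0.0208, 2.46 and 3.59 RPKM, with about 7.02 and 1.0 read pairs in the WT libraries, and passed the filter through G93A, and without it the other 2 genes are no run. Fcer1g had 3.89 RPKM in the WT vehicle library, 2.07 RPKM in WT + SD, 52.0 RPKM in G93A vehicle and 29.2 RPKM in G93A + SD. Adamts4, a secreted protease that cleaves aggrecan and is made by oligodendrocytes, had 10.9, 3.23, 16.98 and 3.29 RPKM, with both SD libraries below both vehicle libraries (log2 ratios -1.73 and -2.33). Only 2.76% of its windows are shared with other genes.

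Among genes higher in WT + SD the largest difference was that of Atp5g1 (chr11:96068852-96075670), which encodes the c subunit of the mitochondrial ATP synthase. It had 1.74 RPKM in the WT vehicle library, 20.9 RPKM in WT + SD, 1.66 RPKM in G93A vehicle and 7.95 RPKM in G93A + SD, so that both SD libraries were higher (log2 ratios 3.51 and 2.19). Its 2 transcript rows had ratios of 3.16 and 4.00, and about 128 and 2088 read pairs stood behind the WT values. The other 86 tested genes of the respiratory chain and ATP synthase were not called, and the median of all 87 was 0.03. Atp5g1 lay in a run with Ngfr, the low affinity neurotrophin receptor (0.693 and 1.17 RPKM), and Skap1, a T cell adaptor (2.27 and 0.440 RPKM).

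Cytosolic ribosomal proteins had 89 tested genes, of which 5 were lower and 4 were higher, beside 1.89% of all genes called, with a median of 0.09. Beside Rps18 and Rps2, Rpl29 had 49.4 RPKM in the WT vehicle library, 23.3 RPKM in WT + SD, 31.3 RPKM in G93A vehicle and 32.3 RPKM in G93A + SD, so that WT vehicle was the library apart. Rps4y2 (10.8 and 6.37 RPKM) and Rpl11 (2.08 and 1.22 RPKM) were also lower. Rpl26, Rpl21 (2.07 and 4.19 RPKM), Rps28 (0.669 and 1.18 RPKM) and Rps13 (0.813 and 1.33 RPKM) were higher. Windows were shared to 65.2% for Rpl29, 62.0% for Rpl11, 70.8% for Rpl26, 81.5% for Rps13, 50% for Rps28, 25.97% for Rpl21 and 14.4% for Rps4y2. None of 75 mitochondrial ribosomal protein genes was called. Of 56 translation initiation factors Eif3j was lower, with 3.18, 0.176, 3.75 and 8.85 RPKM (log2 ratios -3.57 and 1.22; 54.6% of windows shared), as was Eif4ebp1, the repressor of cap-dependent translation (0.703 and 0.421 RPKM).

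Hemoglobin genes were higher in WT + SD. Of 7 tested genes of the blood list 5 were called, all higher, where 0.732% of all tested genes were higher. Hba-a1 had 10.2 RPKM in the WT vehicle library, 20.8 RPKM in WT + SD, 15.5 RPKM in G93A vehicle and 17.02 RPKM in G93A + SD. Hbb-b1 had 6.28, 12.6, 9.61 and 9.76 RPKM. WT vehicle was the lowest and WT + SD the highest of the 4 libraries for both. Hba-a2 and Hbb-b2 had nearly the values of their copies and are not separate measurements. Alas2, the first enzyme of heme synthesis in red cells, had 1.25, 2.19, 1.45 and 2.01 RPKM. The red cell membrane gene Slc4a1 (0.0537 and 0.0287 RPKM) and the neutrophil genes S100a8 (0.583 and 0.525 RPKM) and S100a9 (0.328 and 0.262 RPKM) were below the filter, and the summed level of the list was 99.7 and 134 RPKM. How much blood remained in the tissue of each library was not tested.

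The 2 ferritin light chain names differed in opposite directions. Ftl1, which encodes the iron-storing light chain, had 26.7 RPKM in the WT vehicle library, 50.1 RPKM in WT + SD, 95.8 RPKM in G93A vehicle and 100.8 RPKM in G93A + SD. Ftl2 had 12.1, 0.186, 53.8 and 54.7 RPKM, a log2 ratio of -5.41 in the WT pair and the lowest among genes averaging 5 RPKM or more. Of the windows of Ftl1 90.2% are shared with other genes. LOC624853 had 173 RPKM in the WT vehicle library, 6.55 RPKM in WT + SD and 107.6 and 103 RPKM in the G93A libraries (log2 ratio -4.70). Hspa8, the constitutive heat shock cognate 70 chaperone, had 107.3, 50.1, 85.2 and 81.0 RPKM (-1.10), with 74.9% of its windows shared. It was the only called gene of 34 heat shock and chaperone genes, where 1.89% of all tested genes were called. For Ftl2, LOC624853 and Hspa8 the G93A libraries were near equal and WT + SD was the lowest.

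**Figure D5:**
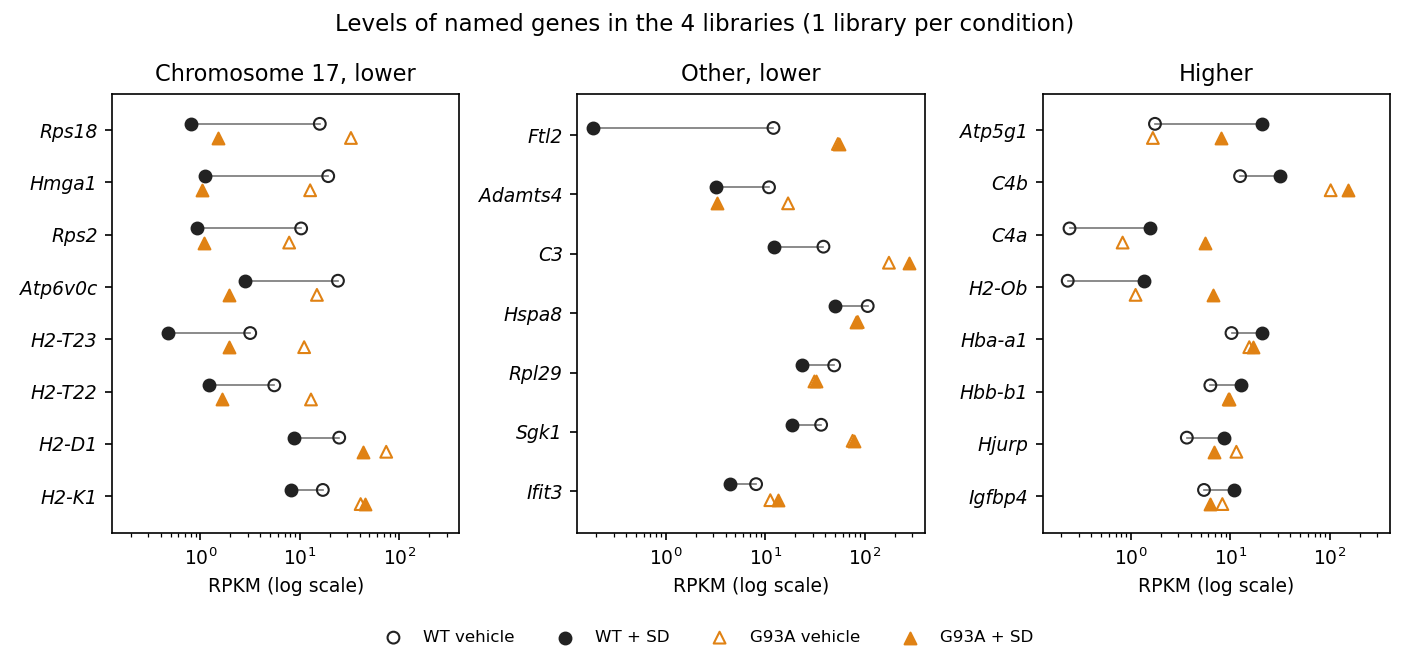
Points give the RPKM of named genes on a log scale in WT vehicle (open circles), WT + SD (filled circles), G93A vehicle (open triangles) and G93A + SD (filled triangles), 1 library each, with a line joining the WT libraries. Filled symbols lie apart from open symbols for Rps18, Hmga1, Rps2, Atp6v0c, H2-T23, H2-T22, Adamts4, Atp5g1 and C4a, whereas for Ftl2, Hspa8, Rpl29 and Sgk1 the triangles coincide.

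Genes known to respond to glucocorticoids gave 3 lower and 1 higher of 25 tested, where 1.89% of all genes were called. Sgk1, a kinase that controls ion transport, had 36.5 RPKM in the WT vehicle library, 18.4 RPKM in WT + SD, 75.7 RPKM in G93A vehicle and 78.8 RPKM in G93A + SD (log2 ratio -0.98), and each of its 6 transcript rows passed the threshold. Lcn2, an iron carrier of reactive glia, had 2.10, 0.728, 5.27 and 4.67 RPKM, and Angptl4, an inhibitor of lipoprotein lipase, had 0.461, 0.248, 2.83 and 3.04 RPKM. Zbtb16, a transcription factor, was higher with 1.90, 3.56, 2.87 and 4.45 RPKM. The median of the list was -0.10. None of 21 clock genes was called, and of 34 immediate early genes only Dusp5 was (0.716 and 0.412 RPKM).

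Genes of ion channels, receptors and matrix gave single calls. Gabra2, a subunit of the GABA-A receptor, had 30.8 RPKM in the WT vehicle library and 20.3 RPKM in WT + SD (log2 ratio -0.60), and Gabrg3 had 1.16 and 2.08 RPKM (0.79). Htr3a, a serotonin-gated channel, had 2.10, 0.566, 1.03 and 0.433 RPKM in the 4 libraries and was lower with SD in both pairs. Igfbp4, which binds insulin-like growth factors, had 5.42, 10.8, 8.30 and 6.23 RPKM. Tnni1, the slow skeletal muscle troponin I, had 2.05, 0.153, 11.8 and 6.39 RPKM, while the skeletal muscle genes Acta1 (0.214 and 0.228 RPKM) and Ckm (0.0625 and 0.102 RPKM) were below the filter in all libraries. Thus 1 of 10 tested muscle genes was called, where 1.89% of all tested genes were. None of 29 Hox genes, 63 protocadherin genes or 24 synaptic genes was called.

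Called genes formed 18 runs with 85 members in all. The MHC run was the longest, with 23 called among 119 tested genes over 3.33 Mb (8 higher and 15 lower), followed by 7 of 40 genes over 2.02 Mb on chromosome 2. There Ahcy, the hydrolase of S-adenosylhomocysteine, had 2.17 RPKM in the WT vehicle library and 0.287 RPKM in WT + SD (log2 ratio -2.55), with 76.0% of its windows shared. Ggt7 (32.5 and 20.98 RPKM), Uqcc (20.8 and 13.7 RPKM), Cpne1 (10.3 and 6.71 RPKM) and Scand1 (4.86 and 2.63 RPKM) were lower, and Myh7b (0.906 and 1.55 RPKM) and 9830001H06Rik (7.27 and 10.98 RPKM) were higher. None of these 7 genes was at least 1.5-fold apart in the G93A pair, and neither were 168 of all 246 called genes. Of 81 pairs of neighbouring called genes with starts at most 1 Mb apart 55 had the same direction, and of 137 pairs farther apart on the same chromosome 68 did. In windows of 10 consecutive tested genes, 78 of 12769 held at least 3 called genes.

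Smaller runs held related genes or copies. On chromosome 9 the neighbours Aph1b and Aph1c, which encode alternative subunits of gamma-secretase, differed in opposite directions, with 8.93 and 5.21 RPKM for Aph1b and 1.62 and 3.63 RPKM for Aph1c in WT vehicle and WT + SD. On the X chromosome Tmsb15b1 (5.09 and 2.05 RPKM) and Tmsb15b2 (11.4 and 5.38 RPKM), thymosin beta genes with over 50% of windows shared, and Bex4 (4.93 and 2.997 RPKM) were lower, and WT vehicle was the highest of the 4 libraries for each of these 3. On chromosome 1 A730008H23Rik and Hjurp, the chaperone that brings the centromeric histone to chromatin, lie at the same position (chr1:88262471-88277633) and are not separate. A730008H23Rik had 6.06, 15.7, 20.6 and 11.8 RPKM and Hjurp 3.64, 8.58, 11.5 and 6.82 RPKM. On chromosome 4 the gene models Gm13139 (0.240 and 1.46 RPKM), 2610305D13Rik (1.79 and 3.32 RPKM) and Gm13157 (1.08 and 1.87 RPKM) were higher together, and 85.6% of the windows of Gm13139 and 54.5% of those of Gm13157 are shared with other genes.

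Small RNA names rest on little in these polyA libraries. Of 61 tested microRNA names 4 were higher and 7 were lower, and of 39 small nucleolar RNAs 4 were higher and 6 were lower, where 1.89% of all tested genes were called. Mir10b, whose hairpin lies among the Hox genes, had 2.22 RPKM in the WT vehicle library and 0.760 RPKM in WT + SD, which correspond to about 5.54 and 1.98 read pairs. Mir703, the called microRNA name with the highest level, had 9.17 and 14.1 RPKM from about 36.7 and 59.1 read pairs. Among all called genes with a length, 27 of 231 had fewer than 20 estimated read pairs in the higher WT library, and the median was 157.

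Seen over all 4 libraries, 30 of the 246 called genes (12.2%) had both SD libraries at least 1.5-fold apart from both vehicle libraries. Of all 12987 tested genes the same 30 did (0.231%), since such a gap is itself enough for a call. By genotype, both WT libraries lay so far from both G93A libraries for 67 called genes (27.2%) and 1727 tested genes (13.3%). Of the 30 genes apart by treatment 23 were lower and 7 were higher with SD. Of these 30 genes 13 lay on chromosome 17. Outside the genes described above they included, chosen after their values were seen, Cbs, the first enzyme of transsulfuration, with 13.6, 6.54, 12.4 and 7.43 RPKM, and Scoc with 43.5, 23.2, 38.5 and 20.99 RPKM. In 93 called genes (37.8%) WT + SD alone stood at least 1.5-fold outside the other 3 libraries, below them for 85 and above them for 8. In 61 genes (24.8%) WT vehicle alone did so, below for 50 and above for 11, in 3 each WT library stood apart on its own side, and in 59 (23.98%) neither did. WT + SD was the lowest library for 124 of the 151 lower genes, and WT vehicle was the lowest for 76 of the 95 higher genes. Both the call and the filter favour these places, since the 65 called genes with a WT mean under 1 RPKM could pass the filter only through higher values in G93A. Among the other 181 called genes WT + SD alone stood apart for 56 and WT vehicle alone for 39, WT + SD was the lowest for 83 of 110 lower genes, and WT vehicle was the lowest for 52 of 71 higher genes.

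In the G93A pair 78 of the 246 called genes (31.7%) were at least 1.5-fold apart, against 2.17% of all genes tested. The direction was the same for 53 and the opposite for 25. On chromosome 17 the numbers were 17 and 2 of 40 genes, and elsewhere or without a position 36 and 23 of 206. Of the 21 genes called at 4-fold or more, 13 were at least 1.5-fold apart in the same direction and 1, Eif3j, in the opposite one. Among the 13, H2-Ob, C4a and H2-gs10 passed the filter only through the higher value of their G93A pair. For these the filter favoured the shared direction. Of all 246 called genes 149 had a ratio of the same sign in both pairs.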

How the data were processed

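PolyA-selected RNA of lumbar cord was sequenced on an Illumina GAIIx with 53-base reads, 1 library per condition. The authors aligned reads with STAR to GRCm38 (mm10) and counted them with HTSeq on Ensembl genes. The deposited table holds 1 value per RefSeq transcript row and library, in a unit the authors did not name in it. Which counting made it is uncertain. The deposited values were taken as RPKM, because value times length sums alike over libraries and its low values peak at 1 step. That peak held 148 of 471 WT vehicle values between 20 and 35, so other low values lie off it. The values carry no counts, and read pairs estimated from the step are approximate. The authors' own ratio columns, also deposited, were not used.

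The 23750 rows were averaged per name. Names with a mean of at least 1 RPKM over 4 libraries were compared by the log2 ratio with a pseudocount of 0.1, called at 1.5-fold. Positions came from GENCODE, or else RefSeq, annotation of GRCm38 for 12953 tested names. Shared windows are 53-base stretches every 10 bases of a gene's transcripts that occur in transcripts of another gene. Named genes are the 15 highest and 15 lowest log2 ratios with a mean of at least 5 RPKM, members of runs, and called or defining members of lists. Members and lists were chosen with earlier results of these data known. The calling was tested on simulated data. Alternatives were the pseudocount, filter, fold, scaling, treatment of rows, read pairs and run distance. Tables were handled with pandas 2.3.3 and numpy 2.4.6 under Python 3.11.15, and figures drawn with matplotlib 3.10.9. Differences include animal, dissection, library and counting error, which 1 library per condition does not separate. Some withheld items are not reported here.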

Additional observations from a re-analysis of the deposited data

Results flagged for a closer look

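For 3 genes the WT pair and the G93A pair differed in opposite directions by at least 1.5-fold, among genes named for their size of difference. C3 had a log2 ratio of -1.63 in the WT pair and 0.66 in the G93A pair. A730008H23Rik had 1.36 in the WT pair and -0.80 in the G93A pair, and Hjurp, at the same position, had 1.21 and -0.74. With 1 library per condition the difference between the pairs was not tested.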

How the results depend on the processing

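No paired analysis was possible because each group has 1 library, and no replicate could be left out. With a pseudocount of 1 RPKM, 38 genes were higher and 66 were lower in place of 95 and 151, all 104 were among the 246, and 7 runs were found in place of 18. Without a filter on low values 420 were higher and 522 lower, with a mean of at least 5 RPKM 25 and 48, and at 2-fold 23 and 54. Scaling by the median of ratios called 246 genes, of which 241 were the same. Summing rows, single-row names, a pseudocount of 0.01 and at least 20 estimated read pairs moved neither count by more than 1.5 times. The same held for 3 alternatives chosen after seeing the data, namely a WT mean of at least 1 RPKM (71 higher and 110 lower), leaving out names with at least 50% shared windows (79 and 123) and leaving out chromosome 17 (83 and 123). With a pseudocount of 1 the log2 ratio of 35 of 99 named genes and the median of 5 of 83 lists moved, among them MHC (-0.37 to -0.24), meninges (-0.23 to -0.13) and UDP glucuronosyltransferases (-0.50 to -0.14). Of the same 99 named genes scaling moved 1, 9830001H06Rik, from 0.589 to 0.58, below the threshold. Col6a2, described below, lay as near the threshold before scaling (0.588), so its call is no firmer. No named gene changed sign under these settings or summed rows. Genes with few read pairs carry the largest counting error, and no setting replaces a second library.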

Other observations

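Matrix and membrane genes outside the groups above gave further single differences in the WT pair. Of 21 tested collagen genes Col11a1 (2.70 and 1.64 RPKM in WT vehicle and WT + SD) and Col5a3 (0.729 and 0.428 RPKM) were lower. Col6a2 (0.664 and 1.05 RPKM) was higher, and the median log2 ratio of the list was -0.12. Of all tested genes 1.16% were lower and 0.732% were higher. Col5a3 and Col6a2 had a WT mean under 1 RPKM and passed the filter through the G93A libraries. Itgb4, the integrin chain of hemidesmosomes, had 9.77 and 6.38 RPKM, and WT vehicle was the highest of the 4 libraries. Kcnn2, a calcium-activated potassium channel, had 11.3 and 7.28 RPKM. It was the only called gene of 63 potassium channel genes, where 1.89% of all tested genes were called. Of 9 tested UDP glucuronosyltransferases 8 had a log2 ratio below 0, with a median of -0.50 (-0.14 with a pseudocount of 1 RPKM), but the summed level of the list was 128 RPKM in WT vehicle and 141 RPKM in WT + SD. Ugt1a6a (0.335 and 0.174 RPKM) and Ugt1a6b (0.414 and 0.217 RPKM) were called lower. They overlap on the genome, share 100% and 80.5% of their windows with other genes, and passed the filter through the G93A libraries.

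None of 30 genes of the unfolded protein response, 28 NRF2 target and metallothionein genes, 22 cholesterol synthesis genes or 28 genes of glycolysis and hypoxia was called. Of the cholesterol synthesis genes 19 lay below 0, with a median of -0.13 in the WT pair and -0.29 in the G93A pair.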
